A study of Mus musculus with 6 samples.

Results

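The genes described here are 10 precursors of secreted bioactive peptides: Cck, Penk, Npy, Adm, Edn1, Edn3, Calca, Pthlh, Nmb and Ucn2. They were picked by symbol from the 54532 gene rows of the deposited expression table. They were chosen by their AdCre and AdGFP values in these same samples, so each member's levels and differences are given as a description, with no test.

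Bulk RNA-seq had been made from cardiomyocyte cultures of newborn mouse hearts that carried a conditional Rit1 allele, in which Cre recombination turns on the M90I variant of the small GTPase RIT1. Cultures received adenovirus on day 3. In the AdGFP group the virus encoded GFP and the label genotype is Rit1 +/+, and in the AdCre group it encoded GFP-Cre and the label genotype is Rit1 M90I/+. Each group had 3 samples, labelled as biological replicates 1 to 3. Both groups carried the conditional allele and a virus. No AdCre sample without the conditional allele was part of the comparison, so the recombinase and the variant cannot be told apart. Gene-level values cannot show which Rit1 allele a sample expressed. Between 25280637 and 32433218 reads were recovered from the values of each sample. The virus is not restricted to one cell type, and the cells were enriched by pre-plating rather than sorted. In such bulk samples, fewer cells of a type and less RNA per cell cannot be told apart.

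Peptide hormones are made as longer precursors that enter the secretory pathway, are cut at pairs of basic residues by proprotein convertases, trimmed by carboxypeptidases and often amidated at the C terminus. They then act on G protein-coupled receptors of the same or other cells. In the heart, the endothelins constrict vessels and promote growth of cardiomyocytes, while adrenomedullin and calcitonin gene-related peptide dilate vessels, and urocortin 2 acts on the CRHR2 receptor of cardiomyocytes. Cholecystokinin is best known from the gut and brain, and it is also made in the heart early in life.

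The sequence just upstream of Cck is shown because Cck had the largest difference of the 10 genes, with those of Calca and Nmb beside it for comparison. They are RefSeq sequences on GRCm38.p6, read 5′ to 3′ on the gene's own strand (minus for all), and each ends at the base before the annotated gene. Cck lies at chr9:121495695-121495944, Calca at chr7:114636358-114636507 and Nmb at chr7:80905077-80905226. Capitals mark a match to TGCGTCA, a variant of the cyclic AMP and AP-1 response elements, on either strand, or the E-box letters CACGTG, which hold the ACGTG core of a hypoxia response element on both strands.
Cck: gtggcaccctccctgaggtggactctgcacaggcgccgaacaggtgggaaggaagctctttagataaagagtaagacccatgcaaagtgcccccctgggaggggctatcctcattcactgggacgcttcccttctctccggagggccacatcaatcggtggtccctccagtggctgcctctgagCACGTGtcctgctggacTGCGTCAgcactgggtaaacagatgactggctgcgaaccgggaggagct
Calca: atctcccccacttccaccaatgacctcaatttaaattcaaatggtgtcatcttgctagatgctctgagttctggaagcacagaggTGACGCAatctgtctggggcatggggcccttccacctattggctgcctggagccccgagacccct
Nmb: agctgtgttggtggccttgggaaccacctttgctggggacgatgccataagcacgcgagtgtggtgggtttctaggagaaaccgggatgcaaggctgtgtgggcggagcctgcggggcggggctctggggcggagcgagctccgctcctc

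Of the 10 members, 8 matched an entry in the promoter table, and Penk and Ucn2 did not. TGCGTCA stood 49 to 43 bases before the start of Cck. In Calca it stood 65 to 59 bases before the start, in the reverse orientation (TGACGCA). These 2 members were the only ones of the 8 with that element within 250 bases upstream, and 1.75% of all 32851 promoter windows of this length held it. The shorter TGACG was found in the same 2 windows, as part of the same matches, and in 17.8% of all windows. ACGTG was found in Cck alone of the 8, at 66 to 61 bases before the start as CACGTG, and in 16.6% of all windows. CCGGAA, an ETS factor core, matched in Pthlh only, at 15 to 10 bases before the start, and in 12% of all windows. TGACGTCA, TGANTCA and TATAAA matched in none of the 8 windows, against 1.55%, 6.75% and 12.4% of all. Both strands were searched for every motif, and a match describes letters and not a bound factor.

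Levels are FPKM, fragments scaled by exon length and library size, which allows levels to be compared between genes. In AdGFP, the order of mean levels was Adm, Edn1, Edn3, Cck, Npy, Nmb, Calca, Ucn2, Penk and Pthlh. They ran from 69.6 ± 17.2 FPKM (SD, n = 3) for Adm to 0.140 ± 0.104 for Pthlh. Neighbours in this order had overlapping samples except Adm and Edn1, Cck and Npy, and Nmb and Calca. In AdCre, Cck stood second behind Adm, with overlapping samples, and above Edn1, with none. The AdCre order then continued with Edn3, Nmb, Npy, Ucn2, Calca, Penk and Pthlh, and besides Cck and Edn1 the neighbours without overlap were Edn1 and Edn3, and Npy and Ucn2.

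**Figure D1:**
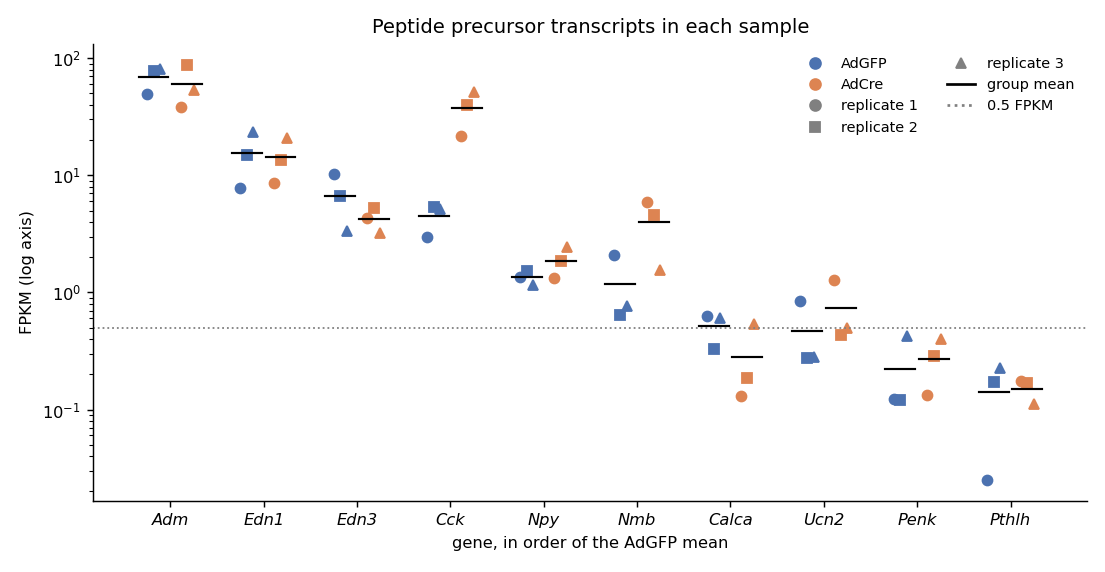
Expression of the 10 peptide precursors in each of the 6 samples, in FPKM on a log axis, with genes in order of the AdGFP mean. Colours mark the group, symbols the replicate number and bars the group mean. All 3 AdCre samples of Cck (21.5 to 51.2 FPKM) lie above its 3 AdGFP samples (2.95 to 5.38 FPKM), and in each of the other 9 genes the groups overlap.

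Cck, at chr9:121489824-121495694 on the minus strand (GRCm38), encodes the precursor of cholecystokinin, which releases bile and pancreatic enzymes and signals satiety. It measured 2.95, 5.38 and 5.13 FPKM in AdGFP replicates 1 to 3 and 21.5, 39.9 and 51.2 FPKM in AdCre replicates 1 to 3. The groups did not overlap: the lowest AdCre sample was several times the highest AdGFP sample. Means were 4.48 ± 1.34 and 37.5 ± 15.0 FPKM (SD, n = 3 each), a ratio of 8.37. These values rest on 95, 178 and 165 reads in AdGFP and 899, 1343 and 1853 reads in AdCre. Within a replicate number, AdCre was 7.30, 7.41 and 9.99 times AdGFP. On the log2(FPKM + 0.1) scale used for all differences here, these came to 2.83, 2.87 and 3.30, a mean of 3.00 with an SD of 0.26, so the 3 numbers differed little.

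The increase of Cck from AdGFP to AdCre was the 8th largest among the 13794 genes that averaged 0.5 FPKM or more over the 6 samples. Cck stood at the 43.3 percentile of those genes in AdGFP and at the 91.0 percentile in AdCre. Of the variation of its log2 level over the 6 samples, 91.4% lay between the groups and 8.15% between the replicate numbers. By share of variation between the groups, Cck ranked 107th of the 13794 genes.

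Nmb, at chr7:80902227-80905076 on the minus strand, encodes neuromedin B, a bombesin-like peptide that contracts smooth muscle. It measured 2.09, 0.646 and 0.767 FPKM in AdGFP and 5.95, 4.54 and 1.55 FPKM in AdCre. AdCre was higher than AdGFP within each replicate number, but the lowest AdCre sample lay below the highest AdGFP sample. Means were 1.17 ± 0.802 and 4.01 ± 2.25 FPKM (n = 3 each), a ratio of 3.43, and the ratios within numbers were 2.84, 7.03 and 2.02. The log2 difference was 1.68 with an SD of 0.87 over the 3 numbers, the next largest after that of Cck. The AdGFP values rest on 41, 13 and 15 reads and those of AdCre on 151, 93 and 34, and 14.7% of the 50-base stretches of Nmb exons are shared with its neighbour Sec11a on the same strand. Sec11a itself was 0.15 higher in AdCre on the log2 scale (adjusted p = 0.887 by limma, 0.505 with the replicate number as a block).

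Ucn2, at chr9:108986010-108987164 on the plus strand, encodes urocortin 2, a corticotropin-releasing factor family peptide that raises cardiac contractility. Its levels were 0.841, 0.273 and 0.281 FPKM in AdGFP and 1.27, 0.436 and 0.50 in AdCre. Replicate 1 was the highest in both groups, so the groups overlapped, while the differences within numbers were alike at 0.54, 0.52 and 0.66 on the log2 scale (SD 0.072). The AdGFP samples held 24, 8 and 8 reads and the AdCre samples 47, 13 and 16. Of its log2 variation, 81.9% lay between the replicate numbers and 17.9% between the groups.

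Npy, at chr6:49822710-49829507 on the plus strand, encodes neuropeptide Y, a co-transmitter of sympathetic nerves. It measured 1.36, 1.53 and 1.15 FPKM in AdGFP and 1.32, 1.85 and 2.42 FPKM in AdCre. The groups overlapped through AdCre replicate 1, and the differences within numbers were −0.03, 0.25 and 1.02, a mean of 0.41 with an SD of 0.54. Penk, at chr4:4133531-4138819 on the minus strand, encodes the precursor of the enkephalins. Its levels were 0.124, 0.121 and 0.422 FPKM in AdGFP and 0.134, 0.284 and 0.398 in AdCre, from 5 to 18 reads a sample. Replicate 3 was the highest in both groups, and the mean difference of 0.26 had an SD of 0.47. Penk shares 8.60% of its 50-base exon stretches with A830012C17Rik, and genes on the other strand cover 14.3% of its exons.

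**Figure D2:**
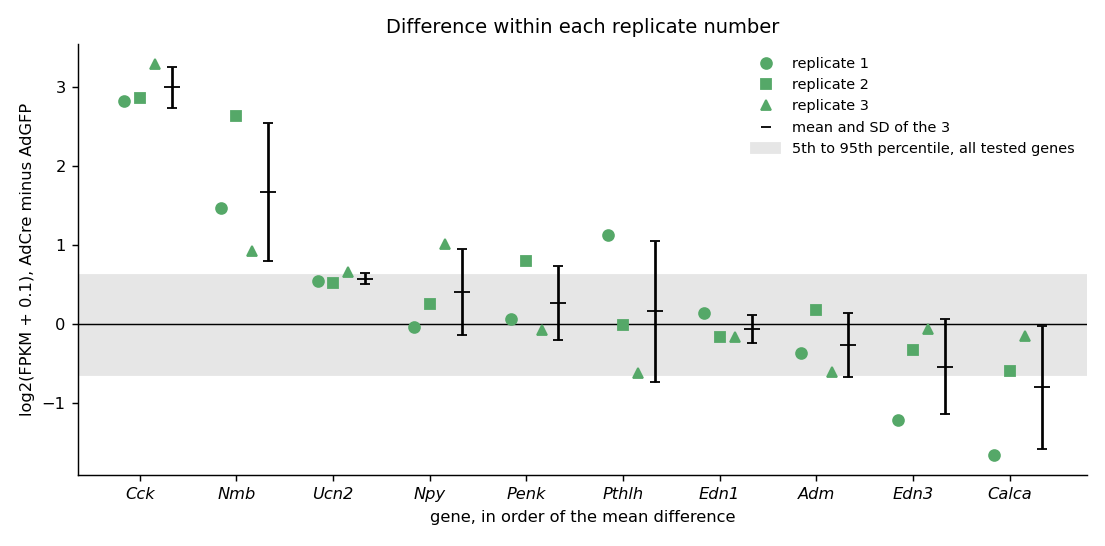
Difference between AdCre and AdGFP within each replicate number, in log2(FPKM + 0.1), for the 10 peptide precursors in order of the mean difference. Symbols mark the replicate numbers, bars the mean and SD of the 3, and the grey band the 5th to 95th percentile of the mean difference of all 13794 tested genes (−0.64 to 0.62). Means above the band are those of Cck (3.00) and Nmb (1.68), and that of Calca (−0.80) lies below it.

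Edn1, at chr13:42301476-42307990 on the plus strand, encodes endothelin-1, the main vasoconstrictor peptide of the endothelium. It measured 7.77, 15.0 and 23.4 FPKM in AdGFP and 8.57, 13.4 and 20.9 FPKM in AdCre. Replicate 1 was the lowest and replicate 3 the highest in both groups. The groups overlapped almost fully, with means of 15.4 ± 7.84 and 14.3 ± 6.19 FPKM (n = 3 each) and a log2 difference of −0.06 with an SD of 0.17. Of its log2 variation, 98.2% lay between the replicate numbers and 0.289% between the groups.

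Edn3, at chr2:174760619-174784042 on the plus strand, encodes endothelin-3, which acts mainly on the EDNRB receptor. It measured 10.2, 6.60 and 3.36 FPKM in AdGFP and 4.32, 5.24 and 3.21 FPKM in AdCre. The groups overlapped, and AdCre was lower within every number, by amounts that ranged from −1.22 in number 1 to −0.06 in number 3 on the log2 scale. In AdGFP, Edn3 was highest in replicate 1 and lowest in replicate 3, the opposite of Edn1.

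Adm, at chr7:110627661-110629820 on the plus strand, encodes adrenomedullin and had the highest mean of the 10 genes in both groups. It measured 49.9, 77.5 and 81.5 FPKM in AdGFP and 38.6, 87.9 and 53.5 FPKM in AdCre. The groups overlapped, and the differences within numbers, −0.37, 0.18 and −0.60, did not share a sign. Calca, at chr7:114631478-114636357 on the minus strand, encodes calcitonin and the alpha form of calcitonin gene-related peptide. Its levels were 0.625, 0.328 and 0.602 FPKM in AdGFP and 0.130, 0.184 and 0.536 in AdCre, from 26, 14 and 25 and from 7, 8 and 25 reads. AdCre was lower within each number, but AdCre replicate 3 lay above AdGFP replicate 2, and the log2 difference of −0.80 had an SD of 0.78. Calca shares 0.715% of its 50-base exon stretches with Calcb, its close relative.

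Pthlh, at chr6:147252101-147264183 on the minus strand, encodes parathyroid hormone-related protein, which relaxes smooth muscle and acts on cartilage and bone. It was the lowest of the 10, at 0.0250, 0.170 and 0.226 FPKM in AdGFP and 0.174, 0.167 and 0.111 in AdCre. These rest on 1, 7 and 9 reads and on 9, 7 and 5 reads, and the AdCre samples lay inside the range of the AdGFP samples. Its mean of 0.146 FPKM over the 6 samples fell below the filter of 0.5 FPKM, so it was not tested.

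**Figure D3:**
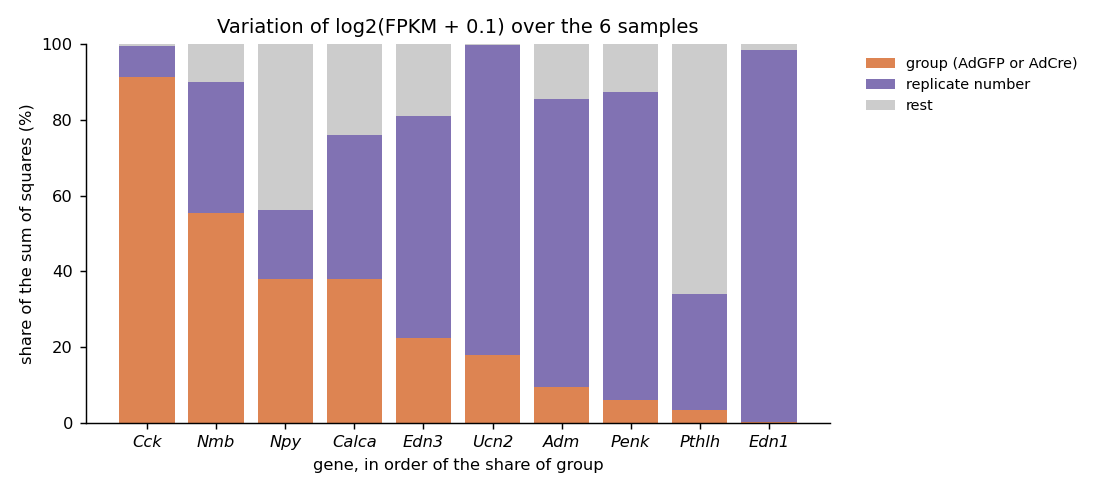
Share of the variation of log2(FPKM + 0.1) over the 6 samples that lies between AdGFP and AdCre, between the 3 replicate numbers, and in the rest, in percent of the sum of squares, for each peptide precursor. The share between groups runs from 91.4% for Cck to 0.289% for Edn1, where 98.2% lies between replicate numbers.

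Set side by side, 6 of the 10 genes had a higher mean log2 level in AdCre and 4 a lower one, with a median difference of 0.21 against −0.00 over the 13794 genes tested. Edn1 changed sides, to 0.03, when FPKM were rescaled to TPM. In 1 of the 10 (Cck) the groups did not overlap, beside 15.4% of all tested genes. In 5 of the 10 (Cck, Edn3, Calca, Nmb and Ucn2) the 3 numbers shared a sign, beside 48.4% of all tested genes. The median share of variation between the groups was 20.2% in the 10 genes and 16% over all tested genes, and the median share between the replicate numbers was 48.3% and 59.2%. These are unlike sets, since the 10 include 3 genes below the filter that all tested genes passed. Over the 7 that passed it, the median difference was 0.41. Their shares between the replicate numbers were 8.15, 18.3, 34.5, 58.6, 76.1, 81.9 and 98.2%.

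Of the 10 genes, 7 passed the filter of a mean of 0.5 FPKM, and Penk, Calca and Pthlh did not. Ucn2 (mean 0.60 FPKM) and Npy (1.61 FPKM) lay nearest above it, and the AdGFP mean of Ucn2, 0.465 ± 0.326 FPKM (n = 3), was under the limit, so that it passed only through AdCre. In limma over all tested genes, 0 of the 7 were called at an adjusted p under 0.05, beside 0.00725% of all genes. With the replicate number as a block, 2 of the 7 were called, Cck and Nmb, beside 6.15% of all genes. With any one number left out, the count with the block was 1 of the 7, without Nmb. Since the members were chosen from this contrast, these counts are printed only to place them among all genes.

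The protein-coding genes whose log2 level over the 6 samples was most like that of Cck, out of 12429 compared, were Suz12 (Pearson r = 0.997), Dcaf4 (r = 0.995), P2rx1 (r = 0.993), Pdxk (r = 0.992) and Kank3 (r = 0.991). The 6 points share libraries and replicate numbers, and Cck falls into separate ranges by group, so that these r values largely follow the group. Their differences between AdCre and AdGFP were far from equal in size. P2rx1, an ATP-gated ion channel, measured 0.601, 1.37 and 1.24 FPKM in AdGFP and 3.37, 6.45 and 6.99 FPKM in AdCre, a log2 difference of 2.29. Suz12, a subunit of Polycomb repressive complex PRC2, measured 11.7, 12.1 and 12.0 FPKM in AdGFP and 13.4, 13.8 and 14.0 FPKM in AdCre, a difference of 0.20.

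The receptors of these peptides were next counted, from a list of 20 genes. Like all lists here, it was drawn up with earlier results of these data known. Of the 20, 10 passed the filter and 3 were at 0 reads in all samples. Of those tested, 3 had a higher and 7 a lower mean log2 level in AdCre, with a median difference of −0.20. limma called 0 receptors without the block and 0 with it, with 2 and 5 receptors at an unadjusted p under 0.05, beside 1402 and 3414 of the 13794 genes tested.

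For cholecystokinin, the receptor gene Cckar had 0 reads in every sample, which allows up to 0.0331 FPKM in the shallowest one. Cckbr had 0 to 4 reads a sample and at most 0.0436 FPKM. Both receptors were thus at or near 0 in cultures where Cck itself reached 51.2 FPKM. The neuromedin B receptor gene Nmbr likewise had at most 3 reads a sample.

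Crhr2, the receptor for urocortin 2, measured 1.45, 2.07 and 1.71 FPKM in AdGFP and 0.983, 1.14 and 1.09 FPKM in AdCre. The groups did not overlap and the log2 difference was −0.64 ± 0.21 (SE), which did not pass the test (adjusted p = 0.365 by limma, 0.0808 with the block). Crhr2 was called only with the block and voom, an alternative chosen after seeing the data (adjusted p = 0.0344). Calcrl, which pairs with RAMP proteins to form the adrenomedullin and calcitonin gene-related peptide receptors, measured 5.11, 4.54 and 4.83 FPKM in AdGFP and 6.01, 5.87 and 5.92 FPKM in AdCre. Its groups did not overlap either, at a difference of 0.29 ± 0.11 (adjusted p = 0.448 by limma, 0.120 with the block). Ramp2, which gives Calcrl its adrenomedullin specificity, differed by 0.46 ± 0.32 (adjusted p = 0.702, 0.0808 with the block), and Ramp1, which gives it specificity for calcitonin gene-related peptide, by −0.42 ± 0.24 (adjusted p = 0.624, 0.133 with the block).

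Pth1r, the receptor of parathyroid hormone-related protein, was the most abundant receptor, with means of 8.75 ± 0.861 FPKM (AdGFP) and 7.06 ± 1.64 FPKM (AdCre; SD, n = 3 each, adjusted p = 0.624 by limma). Ednrb, the endothelin B receptor, had overlapping groups at 5.76 ± 1.01 and 5.30 ± 0.944 FPKM, and the sign of its difference turned when single samples were left out. Receptors of adrenomedullin and calcitonin gene-related peptide, the endothelins, parathyroid hormone-related protein, neuropeptide Y and urocortin 2 were among the 10 that passed the filter, and those of cholecystokinin, the enkephalins and neuromedin B were not.

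**Figure D4:**
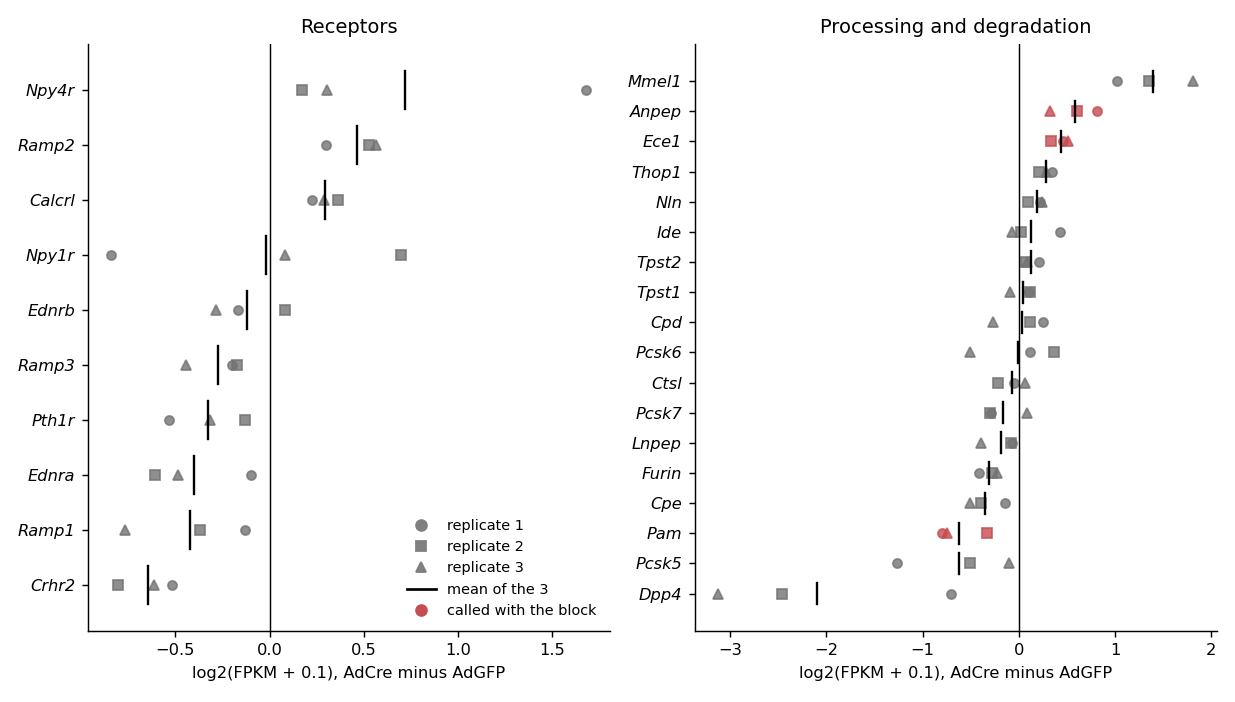
Difference between AdCre and AdGFP in log2(FPKM + 0.1) within each replicate number for the 10 receptor genes and the 18 processing and degradation genes that passed the filter. Symbols mark the replicate numbers, bars their mean, and red the genes called by limma with the replicate number as a block. Ece1 and Anpep are called higher and Pam lower, and no receptor is called.

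Of 28 genes for enzymes and granule proteins that cut, amidate, sulfate, store or break down peptides, 18 passed the filter. Of these, 9 had a higher and 9 a lower mean log2 level in AdCre. limma called 0 of them without the block, with 3 at an unadjusted p under 0.05, beside 1402 of the 13794 genes tested. With the block it called 3 of the 18, of which 2 were higher and 1 lower, beside 6.15% of all genes. In that fit 9 of the 18 were at an unadjusted p under 0.05, beside 3414 of the 13794 genes tested.

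The convertases of neuroendocrine cells, Pcsk1 and Pcsk2, had at most 2 reads in a sample, and the granule protein gene Chga at most 0.169 FPKM. Furin, the convertase of the constitutive secretory pathway, ranged from 42.4 to 73.7 FPKM, and the carboxypeptidase gene Cpe from 178 to 291 FPKM. Cpe differed by −0.35 ± 0.18 (SE; adjusted p = 0.572 by limma, 0.0904 with the block). In every sample Furin and Cpe stood far above the neuroendocrine convertases per length of transcript.

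Pam, the enzyme that amidates the C terminus of peptides such as cholecystokinin, adrenomedullin and neuropeptide Y, measured 158, 177 and 169 FPKM in AdGFP and 90.6, 141 and 100 FPKM in AdCre. The groups did not overlap. Its log2 difference was −0.63 ± 0.19, not called without the block (adjusted p = 0.34 by limma) and called with it (0.0378). Ece1, the endothelin-converting enzyme that cuts big endothelin, measured 22.4, 29.3 and 35.4 FPKM in AdGFP and 30.9, 37.1 and 50.5 FPKM in AdCre. It was higher in AdCre within each number, by 0.44 ± 0.23, and was called with the block only (adjusted p = 0.605 by limma, 0.0354 with the block). Anpep, aminopeptidase N, which breaks down small peptides including enkephalins, measured 3.34, 6.43 and 6.37 FPKM in AdGFP and 5.94, 9.84 and 8.02 FPKM in AdCre. Its difference was 0.58 ± 0.30 (adjusted p = 0.585 by limma, 0.0488 with the block). None of these 3 calls with the block stood when any one number was left out, where adjusted p ran from 0.0518 to 0.177.

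Ctsl, cathepsin L, which also cuts peptide precursors, was among the most abundant of these genes at 81.1 ± 7.67 and 77.6 ± 8.37 FPKM (SD, n = 3 each). Its difference of −0.07 turned to 0.02 when FPKM were rescaled to TPM, and genes on the other strand cover 26.9% of its exons.

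Among 62 precursor genes of other secreted peptides, 17 passed the filter and 12 were at 0 reads in all samples. Of the 17, 5 had a higher and 12 a lower mean log2 level in AdCre, with a median difference of −0.05. limma called 0 without the block, with 3 at an unadjusted p under 0.05 (1402 of all 13794 genes). With the block, 6 of the 17 were at an unadjusted p under 0.05 (3414 of all genes) and 2 were called (6.15% of all genes), both lower. Of the 2 called, Uts2b was no longer called when any one number was left out or FPKM were rescaled to TPM. Nppa was no longer called without number 2, without number 3 or with TPM. Nppa, the precursor of atrial natriuretic peptide, was the most abundant and measured 4223, 3410 and 2264 FPKM in the AdGFP samples, against 3044, 1990 and 1518 FPKM in the AdCre samples. Its difference was −0.61 ± 0.36 (SE; adjusted p = 0.641 by limma, 0.0421 with the block), and genes on the other strand cover 61.5% of its exons. Uts2b, a urotensin 2-like precursor, measured 1.45, 0.708 and 0.923 FPKM in AdGFP and 0.337, 0.0464 and 0.303 FPKM in AdCre, from at most 30 reads, without overlap (difference −1.88 ± 0.54, adjusted p = 0.329 by limma, 0.0451 with the block). Its AdCre mean of 0.228 FPKM was under the filter, so that it was tested only through its AdGFP level. Nppb, the precursor of B-type natriuretic peptide, had overlapping groups at 167.5 ± 62.6 and 133.7 ± 41.9 FPKM (difference −0.31 ± 0.32, adjusted p = 0.825). Apln, which encodes apelin, measured 15.4 ± 0.714 and 15.5 ± 3.67 FPKM, near the level of Edn1, and the sign of its difference turned with the scaling.

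**Figure D5:**
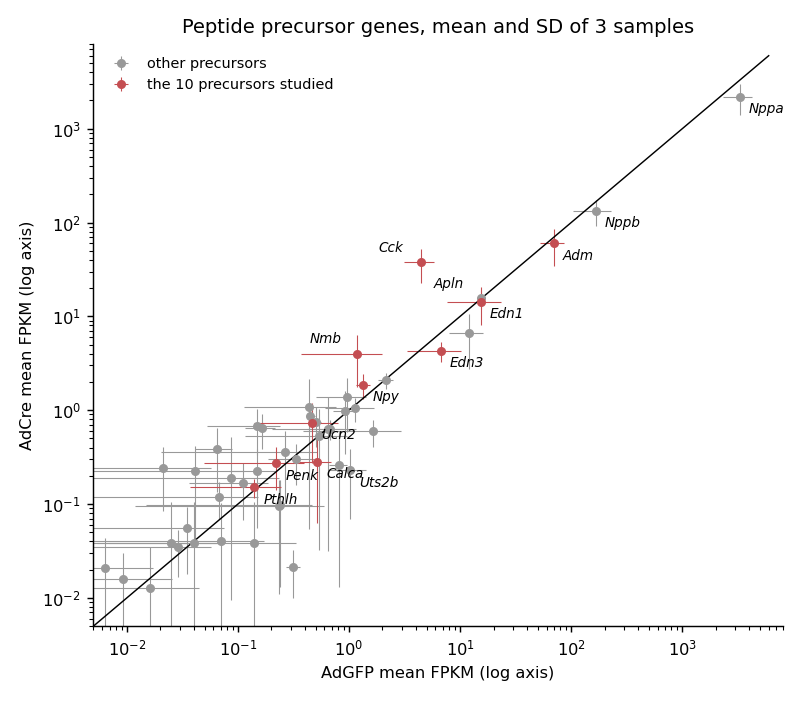
Mean FPKM in AdCre against mean FPKM in AdGFP for the 50 peptide precursor genes with a mean above 0 in both groups, on log axes, with bars for the SD of 3 samples and a line of equal levels. Red marks the 10 genes described here, among which Cck (4.48 against 37.5 FPKM) lies farthest above the line.

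Markers of the cell types that such cultures can hold moved with the groups in part, and their part in the values above was not tested. The counts of markers called with the block stand beside the 6.15% of all genes called in the same fit. All 10 cardiomyocyte and all 8 fibroblast markers were above 0 in each of the 6 samples. All 10 cardiomyocyte markers had a lower mean in AdCre (5 called with the block), and their summed level ran from 4730 to 7989 FPKM in AdGFP and from 2626 to 4055 FPKM in AdCre. All 8 endothelial markers had a higher mean (2 called with the block, Cdh5 and Egfl7), with sums of 44.5 to 77.5 and 58.9 to 100.8 FPKM that overlapped. Of 8 fibroblast markers, 7 had a lower mean (3 called with the block), with sums of 2589 to 4644 and 2272 to 3324 FPKM.

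All 7 tested macrophage markers of 8 had a higher mean (2 called with the block), with overlapping sums of 49.3 to 268 and 87.8 to 337 FPKM. The endothelial, fibroblast and macrophage sums were each lowest in replicate 1 and highest in replicate 3 of both groups, the order also seen for Edn1. Of 9 mesothelial and epicardial markers, 3 had a higher and 6 a lower mean log2 level, and 4 were called with the block. Krt8 and Krt18 were higher and Lrrn4 and Tbx18 lower, with sums of 264 to 433 and 387 to 505 FPKM. None of the 8 smooth muscle and pericyte markers was called in either fit, with sums of 821.7 to 1316 and 978 to 1209 FPKM. At an unadjusted p under 0.05 were 0 and 1 of them, beside 1402 and 3414 of the 13794 genes tested. Without the block, limma called 0 markers of any list.

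Neurons and Schwann cells are known sources of several of these peptides. Of 10 neuronal markers, 5 passed the filter and 0 were called in either fit by limma. At an unadjusted p under 0.05 were 1 and 2 of them, beside 1402 and 3414 of the 13794 genes tested. The sums, 95.5 to 189 FPKM in AdGFP and 124 to 199 FPKM in AdCre, came mostly from Uchl1 and Tubb3. Of the 5 tested, Prph, Tubb3 and Uchl1 had a higher mean log2 level in AdCre (differences of 0.70, 0.24 and 0.16) and Th and Dbh a lower one (−1.04 and −1.11). The sympathetic markers Th and Dbh were low: Th measured 0.856, 1.70 and 0.807 FPKM in AdGFP and 0.581, 0.934 and 0.153 in AdCre, and Dbh 0.676, 2.07 and 1.91 in AdGFP and 0.626, 0.719 and 0.469 in AdCre. Of 6 Schwann cell markers, 3 passed the filter and 0 were called in either fit (1 and 2 at an unadjusted p under 0.05), with sums of 4.77 to 6.32 and 4.12 to 6.01 FPKM.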

How the data were processed

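The authors deposited FPKM, their only unit, for 54532 gene IDs in 6 samples. The submitters' processing notes name fastp, STAR 2.5, HTSeq 0.6.1 and mm10. Which annotation was used, and whether counting was stranded, are not given in the sources used here. Of the IDs, 54495 matched GENCODE M21, which gave symbols, coordinates and exon lengths. FPKM multiplied by exon length came out as whole reads for 96.3% of values (tolerance 0.01), which gave 25280637 to 32433218 reads a sample. These totals are approximate, as they differ from the library sizes worked out from the FPKM. The total was 26545550 against 24713784 in AdGFP replicate 1, and 27016127 against 27706383 in AdCre replicate 3. The 10 members and all lists were chosen with earlier results of these data known.

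The 13794 genes that averaged 0.5 FPKM or more over the 6 samples were fitted on log2(FPKM + 0.1) with limma 3.58.1 (R 4.3.3, eBayes with trend, group as the only term) and adjusted by Benjamini-Hochberg over all of them. A call is an adjusted p under 0.05. Standard errors are those of this fit. A fold change on this scale understates that of low genes. The fit was tested on simulated data. The outcome is not given here, so no conclusion is drawn from it on how well the fit suits these samples. Replicate numbers were then added as a block. Same-numbered AdGFP and AdCre samples deviated together from their group means (correlations 0.568, 0.268 and 0.506 over genes), and on these values alone same-numbered samples were treated as pairs. Nothing says that replicates came from separate litters, so p-values measure only the spread between these samples. No pair of samples of the same group agreed within sampling noise.

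Besides the members, the text names from each list the genes called in either fit (at most 5, or the 3 with the smallest p where none was called), the 3 with the highest mean, the 5 protein-coding genes most correlated with Cck, and marker genes. Cckar, Cckbr, Nmbr, Pcsk1, Pcsk2, Chga, Furin, Sec11a and the single marker genes other than Th and Dbh were named after their values were seen. The values of 1 neuronal marker are not reported here. Alternatives were the pseudocount, the filter, rescaling to TPM, median centring, eBayes without trend, voom on the recovered reads, the block and leaving out samples.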

Additional observations from a re-analysis of the deposited data

How the results depend on the processing

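Most calls were made only with the replicate block. Without it, limma called 1 gene of 13794 (1402 at an unadjusted p under 0.05), 3 with a pseudocount of 1, 4 without trend, 0 without a filter (2168 at an unadjusted p under 0.05), 0 by voom on the recovered reads (1418), and 0 to 2 when single samples were left out. With the block the count was 848, then 772, 149 and 1 without numbers 1, 2 and 3, and, in alternatives chosen after seeing the data, 875 after rescaling to TPM and 1541 by voom. Of the calls with the block, 42.9% were higher in AdCre, against 61.5% after rescaling to TPM, which moved the median of all genes by 0.09 on the log2 scale. Receptor calls were 1 (Crhr2) with the block and voom and 0 otherwise. Enzyme calls were 3 with the block, 2 without number 1 (neither of them among the 3), 0 without number 2 or 3, 3 with TPM and 7 by voom. Calls of other precursors were 2 with the block, 2 without number 1 (Nppa but not Uts2b among them), 0 without number 2 or 3, 0 with TPM and 2 by voom. Marker calls were 16 with the block, 17, 4 and 0 without numbers 1, 2 and 3, 14 with TPM and 24 by voom.

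Cck kept its direction in all alternatives (log2 difference 2.73 to 3.35), as did Nmb (1.15 to 2.24), Npy (0.11 to 0.64), Ucn2 (0.15 to 1.01) and Edn3 (−0.96 to −0.17). Adm (−0.58 to 0.01) and Edn1 (−0.48 to 0.31) did not. Of the 15 receptor, enzyme and other precursor genes refitted under the alternatives, 3 with differences near 0 changed sign, and the cause was not tested. Ednrb ran from −0.25 to 0.0266 when single samples were left out. Ctsl was 0.0233 with TPM, without and with the block, 0.0067 with the block without number 2, and −0.15 to 0.0012 when single samples were left out. Apln was 0.0815 with TPM, without and with the block, 0.0050 with median centring, 0.0920 and 0.0753 with the block without numbers 1 and 3, 0.0062 with the block and voom, and −0.19 to 0.11 when single samples were left out. With 1 to 26 reads a sample in Penk, Calca and Pthlh, counting error alone is large, and the 3 were not tested.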
